A study of Mus musculus with 16 samples.

Results

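The 9 genes Prnp, Gpd1l, Txndc5, Fstl1, Ust, Pik3r3, Pigq, Npnt and Adam10 gave higher array signals when cortical neurons carried c-Fos shRNA in place of a control shRNA, already before stimulation. They were chosen by that measured difference on these same arrays, as present at 0 h of KCl and lasting over the later times. The differences between the shRNAs are therefore given below as a description, with no test. The array annotation gave these 9 genes 27 probe sets, out of 18193 genes and 45037 probe sets that are not array controls. A probe set is the group of short probes that reports 1 transcript region, and its level cannot be set against that of another probe set. Of the 27, 23 passed the filter on low values and 4 were too dim: 2 of Pigq, 1 of Npnt and 1 of Adam10.

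The series holds 16 Affymetrix Mouse 430 2.0 arrays of cortical neurons taken from C57BL/6 embryos at E16.5 and grown for 7 days in vitro. Both arms received a lentivirus with polybrene on day 5, so every culture carries a virus and an shRNA, and the control shRNA targets firefly luciferase, a gene mice lack. On day 7 came silencing and then 0, 1, 3 or 6 h of KCl, and each of the 8 combinations of shRNA and time has 2 arrays. One shRNA against c-Fos is named in the labels, so a difference between the arms cannot be told apart from other effects of that virus or of that shRNA's sequence. The arrays are labelled as biological replicates without a statement on separate dissections. A p-value here therefore reflects only how these arrays varied, which may be technical.

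c-Fos pairs with a Jun protein to form the AP-1 transcription factor, and depolarising KCl opens calcium channels and switches the Fos gene on within the first hour in neurons. The 9 genes act in separate places. Prnp encodes the prion protein, held on the neuronal surface by a GPI anchor. Pigq encodes a subunit of the enzyme that starts GPI anchor synthesis, and Adam10 a membrane protease that sheds the prion protein, the amyloid precursor protein and Notch from the cell surface. Fstl1 and Npnt encode secreted glycoproteins, and Ust a Golgi enzyme that sulfates uronic acids in chondroitin and dermatan sulfate. Txndc5 is a protein disulfide isomerase of the endoplasmic reticulum, Gpd1l resembles cytosolic glycerol 3-phosphate dehydrogenase, and Pik3r3 is a regulatory subunit of PI3K.

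Because the targeted protein binds DNA, the promoters of the members were searched for the letters of 4 motifs on both strands: the AP-1 motif TGANTCA, the CRE core TGACGT, the E-box CACGTG and the GC box GGGCGG. RefSeq promoters, build GRCm38.p6, from 250 bases before to 50 bases after the start, gave 14 sequences for the 9 genes and 32851 for all genes. The AP-1 motif was found in 1 of the 14, of Prnp, against 7.81% of all promoters. The CRE core was found in 1 of Txndc5, against 7.51%, and the E-box in 1 promoter each of Adam10, Gpd1l and Txndc5, against 7.15%. The GC box was found in 11 promoters of 8 genes, all but Pigq, against 35.7%. The matches of the first 3 motifs that lie before the start are shown with their surroundings, 5′ to 3′ on the gene's strand, the motif in capitals. They overlap no match of the other motifs.

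Prnp, AP-1 motif 102 bases before the start, chr2:131909796-131909852, plus strand: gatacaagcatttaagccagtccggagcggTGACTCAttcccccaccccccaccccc
Adam10, E-box 64 bases before the start, chr9:70678888-70678943, plus strand: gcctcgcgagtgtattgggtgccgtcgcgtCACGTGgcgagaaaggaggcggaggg
Gpd1l, E-box 127 bases before the start, chr9:114934089-114934144, minus strand: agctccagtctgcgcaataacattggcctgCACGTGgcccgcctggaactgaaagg
Txndc5, CRE core 138 bases before the start, chr13:38528027-38528082, minus strand: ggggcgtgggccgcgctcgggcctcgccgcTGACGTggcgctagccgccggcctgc

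The AP-1 letters were in 1 of the 14 member promoters, that of Prnp, and in 7.81% of all promoters. Nothing is read from this count about the members. A match describes letters and not a binding site, and binding was not measured on these arrays.

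The labels were checked against the targeted gene and against cell markers. At 0 h Fos read 246 ± 20.5 (SD, n = 2) in the control arm and 135 ± 23.6 in the c-Fos arm. At 1 h it read 14676 ± 60.5 and 8675 ± 1340 in the same order. It read 13473 ± 233 and 4030 ± 377 at 3 h, and 11929 ± 44.5 and 3241 ± 140 at 6 h. All 12 neuronal markers were above the filter, and their summed intensity ran from 95305 to 104748 on control arrays and from 91102 to 99897 on c-Fos shRNA arrays. Within each time the neuronal sum was lower with c-Fos shRNA and did not overlap, for example 91102 to 93856 against 95305 to 98929 at 0 h, and the part of this in the differences below was not tested. Of the astrocyte markers, 10 of 10 were above the filter, with sums of 45474 to 57823 and 42952 to 54186. Microglial markers were near the floor, with 8 of 10 below the filter and sums of 379 to 435 and 395 to 493. The ranges of the sums also overlapped for the oligodendrocyte lineage (10201 to 19002 and 11445 to 17766), for vascular cells and fibroblasts (1574 to 2560 and 1580 to 2722) and for progenitors (9834 to 13086 and 9562 to 13038). The 18S ribosomal control probe set was lower with c-Fos shRNA, at 3839 to 4558 against 4805 to 5602, with no overlap, and its part in the differences below was not tested. The ratio of the 3′ to the 5′ probe set of Actb was alike, at 1.17 to 1.23 and 1.18 to 1.21. On arrays of whole cultures, fewer cells of a type and less RNA per cell cannot be told apart.

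Each of the 9 genes had at least 1 probe set that was higher with c-Fos shRNA on both arrays at each of the 4 times. Levels are deposited intensities, and differences are c-Fos shRNA minus control shRNA in quantile-normalized log2(intensity + 16), a scale that understates the change of dim probe sets. The brightest probe set of each gene stands for it unless another is named. Over these 9, the average difference of the 4 times ran from 1.15 for Pik3r3 to 2.74 for Prnp, and the difference at single times from 0.59 for Pik3r3 at 3 h to 3.11 for Prnp at 1 h. For 8 of the 9 the arms did not overlap over all 16 arrays, and Pik3r3 was the exception. How many of all genes had arms apart was not counted, and the members were chosen for being higher. For the average of the 4 times, with 1 probe set a gene, 24.0% of 13915 genes were called higher and 21.7% lower. These calls had a limma Benjamini-Hochberg adjusted p under 0.05, and nothing is read from them about genes chosen for being higher.

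**Figure D1:**
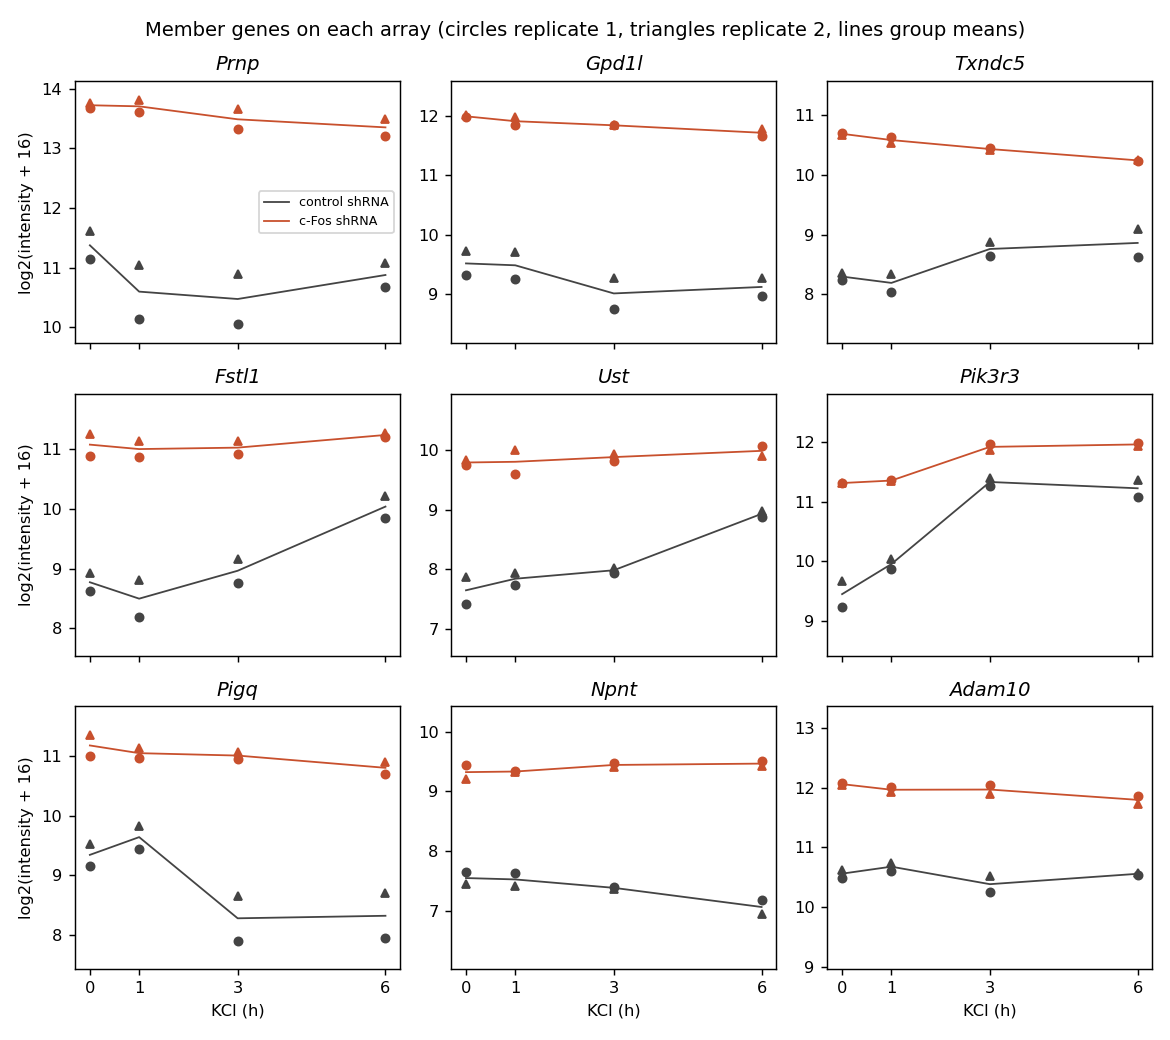
Normalized log2(intensity + 16) of the brightest probe set of each member (vertical axis) against hours of KCl (horizontal axis); black is control shRNA, orange c-Fos shRNA, circles replicate 1, triangles replicate 2, and lines join group means of 2 arrays. The arms stay apart in 8 panels, and in the Pik3r3 panel the control line climbs toward the other, leaving a difference of 0.59 at 3 h.

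Prnp showed the largest difference of the 9 genes on average over the 4 times. With control shRNA its probe set 1448233_at read 2216 and 3071 at 0 h, 1167 and 2184 at 1 h, 1036 and 1905 at 3 h, then 1587 and 2163 at 6 h, replicate 1 first. The c-Fos shRNA arrays read 12885 and 14029, 12327 and 14649, 10130 and 13028, and 9425 and 11744. The lowest array with c-Fos shRNA was above the highest control array. On the log2 scale the difference was 2.35 ± 0.31 (SE), 3.11, 3.01 and 2.48 in the order of the 4 times, which is 5.09-fold, 8.62-fold, 8.08-fold and 5.56-fold. The other probe set, 1416130_at, ran from 622 to 1322 on control arrays and from 3839 to 6837 on c-Fos shRNA arrays, with differences of 2.48 ± 0.20, 3.12, 2.72 and 2.33. It fell with KCl when averaged over the shRNAs, by 0.57 ± 0.14 at 3 h (limma adjusted p = 0.00804) and by 0.48 at 6 h (adjusted p = 0.0154). The call at 6 h was lost without control shRNA 0 h replicate 2 (adjusted p = 0.0639), control shRNA 6 h replicate 1 (adjusted p = 0.0544) or c-Fos shRNA 6 h replicate 1 (adjusted p = 0.0716). For 1448233_at the same changes were -0.57 ± 0.22 (adjusted p = 0.0635) and -0.43 (adjusted p = 0.129). The change at 3 h was called without control shRNA 1 h replicate 1 (adjusted p = 0.0299), 1 h replicate 2 (0.0304) or 3 h replicate 2 (-0.78, adjusted p = 0.0146). With the replicate number as a block the changes at 3 and 6 h were called, at adjusted p = 0.000538 and 0.00317, and both probe sets were also lower at 1 h, by 0.44 (1416130_at, adjusted p = 0.000109) and 0.40 (1448233_at, adjusted p = 0.0236).

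Pigq, whose product acts at the first step of the anchor that holds the prion protein, differed most at the later times. With control shRNA 1437999_x_at read 562 and 739 at 0 h, 718 and 949 at 1 h, 220 and 383 at 3 h, then 224 and 389 at 6 h. The c-Fos shRNA arrays read 1954 and 2635, 1998 and 2271, 1918 and 2127, and 1598 and 1902. The control arrays at 3 and 6 h were all below those at 0 and 1 h, and no c-Fos shRNA array came down to the control range. The differences were 1.83 ± 0.27, 1.41, 2.73 and 2.48 at 0, 1, 3 and 6 h. Averaged over the shRNAs the probe set fell by 0.62 ± 0.19 at 3 h (limma adjusted p = 0.0271) and by 0.70 at 6 h (adjusted p = 0.0106). From 1 h to 6 h it fell by 1.32 ± 0.27 with control shRNA (adjusted p = 0.003), and with c-Fos shRNA the change was -0.25 (adjusted p = 0.583).

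The call of Pigq 1437999_x_at at 3 h was lost when any of 5 single arrays was left out. These were control shRNA 0 h replicate 2 (adjusted p = 0.0985), control shRNA 3 h replicate 1 (0.116), c-Fos shRNA 0 h replicate 2 (0.102) and c-Fos shRNA 3 h replicate 1 (0.0798) or replicate 2 (0.050). Of the 7 Pigq probe sets, 1415946_at, 1435416_x_at and 1438652_x_at also differed by more than 1 on average, at 2.21 ± 0.15, 1.83 ± 0.12 and 2.23 ± 0.15. The probe set 1415946_at, the one of these without the x mark, ran from 65 to 349 on control arrays and from 627 to 1124 on c-Fos shRNA arrays, and its difference was 1.73 at 0 h and 2.83 at 6 h. The x mark is the array maker's sign that probes may also match other transcripts, and 3 Pigq probe sets carry it. A further probe set, 1426055_a_at, was higher by 0.81 ± 0.07, and the dim 1426056_at and 1431917_at ran from 1 to 25 and from 14 to 50 with both arms overlapping.

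Adam10 was higher by a near-constant amount. Its probe set 1428103_at read 1410 and 1567 at 0 h, 1599 and 1763 at 1 h, 1187 and 1449 at 3 h, then 1433 and 1511 at 6 h with control shRNA. It read 4170 and 4259, 4084 and 3917, 4168 and 3898, and 3657 and 3422 with c-Fos shRNA. The 8 arrays of each arm lay close together and far from the other arm, with differences of 1.50 ± 0.10, 1.29, 1.59 and 1.24. The probe set 1450105_at gave an average of 1.59 ± 0.08. The dimmer 1450104_at, at 73 to 115 and 103 to 177, gave 0.61 ± 0.13, and 1460083_at, at 5 to 26 and 7 to 18, was below the filter. No Adam10 probe set was called for KCl averaged over the shRNAs, and the largest change of 1428103_at was -0.13 ± 0.07 at 3 h (limma adjusted p = 0.163). Without control shRNA 3 h replicate 2 that change was -0.20 (adjusted p = 0.0378).

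Among the secreted and matrix-related members, the difference in Fstl1 narrowed as the control arm rose. With control shRNA 1448259_at read 381 and 483 at 0 h, 285 and 458 at 1 h, 408 and 548 at 3 h, then 868 and 1177 at 6 h. Its c-Fos arm read 1826 and 2484, 1889 and 2264, 1891 and 2214, and 2271 and 2483. Both 6 h control arrays were above all other control arrays, while the 6 h c-Fos shRNA arrays were above those at 1 and 3 h and overlapped those at 0 h. The differences were 2.31 ± 0.22, 2.51, 2.06 and 1.20. From 1 h to 6 h the control arm rose by 1.54 ± 0.22 (limma adjusted p = 0.00024), and the change with c-Fos shRNA was 0.24 (adjusted p = 0.50). The other Fstl1 probe set, 1416221_at, rose by 1.38 ± 0.19 with control shRNA (adjusted p = 0.000157) and changed by 0.26 with c-Fos shRNA (adjusted p = 0.356). Averaged over the shRNAs, KCl for 6 h raised 1448259_at by 0.72 ± 0.16 (adjusted p = 0.00244) and 1416221_at by 0.67 ± 0.13 (adjusted p = 0.00118).

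Ust followed a similar course. With control shRNA 1458897_at read 159 and 225 at 0 h, 203 and 242 at 1 h, 227 and 242 at 3 h, then 427 and 475 at 6 h. Those with c-Fos shRNA read 824 and 932, 791 and 1041, 871 and 962, and 1014 and 955. The 6 h control arrays again stood above the earlier ones and stayed below every c-Fos shRNA array. The differences were 2.14 ± 0.16, 1.96, 1.90 and 1.06. KCl for 6 h raised it by 0.74 ± 0.12 over both arms (limma adjusted p = 0.000207). From 1 h to 6 h the control arm rose by 1.09 ± 0.16 (adjusted p = 0.000332), and the change with c-Fos shRNA was 0.18 (adjusted p = 0.473). The second probe set, 1437293_x_at, was dim, at 17 to 44 and 38 to 74, and differed by 0.62 ± 0.11 with overlapping arms.

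Npnt encodes nephronectin, a matrix ligand of integrins, and its probe sets disagreed. In the control arm 1452106_at read 188 and 164 at 0 h, 188 and 162 at 1 h, 151 and 149 at 3 h, then 127 and 108 at 6 h. In the c-Fos arm it read 660 and 608, 655 and 648, 674 and 652, and 665 and 670. Control arrays at 6 h were the lowest, and the c-Fos shRNA arrays were nearly level. The differences were 1.78 ± 0.13, 1.81, 2.06 and 2.40. From 1 h to 6 h the control arm fell by 0.46 ± 0.13 (limma adjusted p = 0.0174), and the change with c-Fos shRNA was 0.13 (adjusted p = 0.524). That call was lost without control shRNA 1 h replicate 1 (adjusted p = 0.146) or control shRNA 6 h replicate 2 (adjusted p = 0.134). The probe set 1452107_s_at differed by 2.14 ± 0.09 on average, and 1426560_a_at by 0.51 ± 0.16. Averaged over the shRNAs, KCl for 6 h changed 1452106_at by -0.17 (adjusted p = 0.158, and 0.0422 with the replicate block) and 1452107_s_at by -0.26 (adjusted p = 0.111, and 0.00721 with the block). The probe set 1426561_a_at ran from 74 to 97 with control shRNA and from 70 to 97 with c-Fos shRNA, an average difference of 0.05 ± 0.09, and 1421429_a_at was at 1 to 8 in both arms. Which Npnt transcripts each probe set reports was not analysed here.

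Txndc5 also rose in the control arm. With control shRNA 1451091_at read 289 and 320 at 0 h, 256 and 322 at 1 h, 373 and 448 at 3 h, then 357 and 519 at 6 h. The c-Fos shRNA arrays read 1597 and 1641, 1598 and 1499, 1366 and 1336, and 1146 and 1218. The arms moved toward each other after 1 h without meeting. The differences were 2.39 ± 0.15, 2.40, 1.68 and 1.38, and those of 1423746_at were 2.02 ± 0.16, 2.26, 1.37 and 1.20. From 1 h to 6 h the control arm rose by 0.67 ± 0.15 (1451091_at, limma adjusted p = 0.00476) and by 0.78 ± 0.16 (1423746_at, adjusted p = 0.00344). The changes with c-Fos shRNA were -0.34 (adjusted p = 0.121, and 0.0353 with the replicate block) and -0.28 (adjusted p = 0.251). Without control shRNA 1 h replicate 1 the rise of 1451091_at was 0.52 (adjusted p = 0.0532). Averaged over the shRNAs, neither probe set was called at 6 h, with changes of 0.06 and 0.04.

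Gpd1l had a large difference that varied little with KCl. With control shRNA 1438195_at read 625 and 836 at 0 h, 635 and 871 at 1 h, 403 and 596 at 3 h, then 460 and 586 at 6 h. Its c-Fos arm read 3845 and 4144, 3673 and 4024, 3599 and 3719, and 3128 and 3518. The highest control array was far below the lowest c-Fos shRNA array. The differences were 2.47 ± 0.19, 2.42, 2.82 and 2.59, which is 5.53-fold, 5.34-fold, 7.06-fold and 6.00-fold. The second probe set, 1438196_at, ran from 74 to 175 and from 591 to 774, with an average difference of 2.36 ± 0.14. KCl changed 1438195_at by -0.33 ± 0.13 at 3 h (limma adjusted p = 0.0837) and by -0.34 at 6 h (adjusted p = 0.0615). With the replicate block both were called, at adjusted p = 0.0039 and 0.00253, and leaving out single control arrays also moved them past the threshold: at 3 h control shRNA 0 h replicate 1 (adjusted p = 0.0399) or 3 h replicate 2 (0.0178), and at 6 h any of 6 control arrays. Those 6 were control shRNA 0 h replicate 1 (0.028), both replicates of 1 h (0.0449 and 0.0454) and of 3 h (0.033 and 0.0331), and 6 h replicate 2 (0.0463).

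Pik3r3 was the member with the clearest KCl response. Its single probe set 1456482_at read 591 and 804 at 0 h, 961 and 1084 at 1 h, 2436 and 2722 at 3 h, then 2133 and 2641 at 6 h with control shRNA. Those with c-Fos shRNA read 2433 and 2563, 2646 and 2595, 3948 and 3814, and 3963 and 3912. Of the 4 control arrays at 3 and 6 h, 3 were above the lower unstimulated c-Fos shRNA array, so the arms overlapped over the whole series while staying apart within each time. The differences were 1.86 ± 0.13, 1.40, 0.59 and 0.74. Averaged over the shRNAs it rose by 1.24 ± 0.09 at 3 h (limma adjusted p = 7.66e-07) and by 1.21 at 6 h (adjusted p = 5.44e-07). At 1 h the change was 0.27 (adjusted p = 0.123), and with the replicate block it was called (adjusted p = 0.023), as it was without control shRNA 0 h replicate 2 (change 0.38, adjusted p = 0.0134). Between 1 h and 6 h it rose in both arms, by 1.27 ± 0.13 with control shRNA (adjusted p = 2.02e-05) and by 0.61 ± 0.13 with c-Fos shRNA (adjusted p = 0.00415).

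Across the 23 tested probe sets, 18 had an average difference above 1 and 5 lay between 0 and 1. One probe set, 1437293_x_at of Ust, passed the filter through the c-Fos arm, with a mean log2 level of 5.54 in the control arm and 6.16 in the c-Fos arm against a filter at 5.79, and the other 22 were above the filter in the control arm alone. Arms were apart at all 4 times in 19 of the 23 and over all 16 arrays in 18. The same counts over all probe sets were not made, and the members were chosen for this difference. The 5 below 1 were 1437293_x_at of Ust, 1426055_a_at of Pigq, 1426560_a_at and 1426561_a_at of Npnt, and 1450104_at of Adam10. Prnp, Gpd1l, Txndc5 and Fstl1 each had 2 probe sets, whose average differences lay 0.08, 0.21, 0.25 and 0.10 apart.

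**Figure D2:**
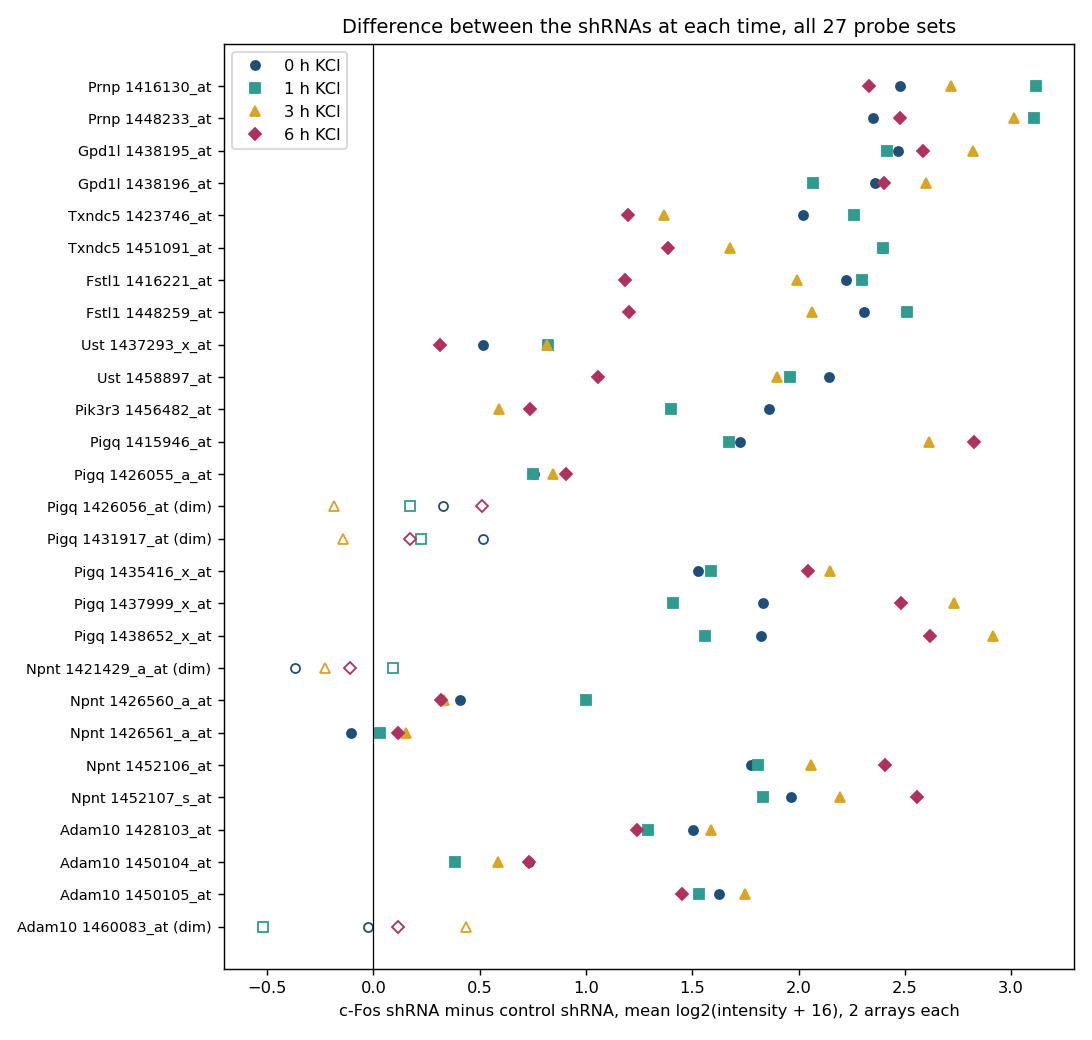
Difference between the shRNAs in mean log2(intensity + 16) (horizontal axis, c-Fos shRNA minus control shRNA, 2 arrays each) for all 27 probe sets (rows), with a marker for each KCl time; open markers are the 4 probe sets below the filter. The markers of 18 rows average above 1, while 1426561_a_at of Npnt and the open rows scatter around 0.

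The KCl response averaged over the shRNAs does not use the difference between the shRNAs, which chose the members. Changes from 1 h to later times, and their interactions with the shRNA, use no 0 h array. They do share the 1, 3 and 6 h arrays with the choice, so they are not independent of it. At 1 h against 0 h, 0 of 23 member probe sets were called, and the background was 3.78% called higher and 2.85% lower. An unadjusted limma p under 0.05 was found for 2 of 23, and for 15.6% of all probe sets. With the replicate block 1 was called higher (Pik3r3) and 2 lower (Prnp), against 7.03% and 6.69% of all probe sets. At 3 h 1 member probe set was called higher and 4 lower, against 15.0% and 18.5%. The one higher was Pik3r3, and the 4 lower were 1416130_at of Prnp and 1435416_x_at, 1437999_x_at and 1438652_x_at of Pigq. With the block 1 was called higher and 7 lower, against 21.0% and 25.5%. At 6 h 4 were called higher, 2 of Fstl1, 1 of Ust and 1 of Pik3r3, and 6 lower, 5 of Pigq and 1 of Prnp, against 20.3% and 24.2%. In both directions together, 10 of 23 were called at 6 h where 44.5% of all probe sets were. With the block 4 were called higher and 10 lower, against 25.7% and 30.2%, and the 4 gained were Prnp 1448233_at, Gpd1l 1438195_at and 2 of Npnt. The member median was -0.13 at 6 h and that of all probe sets -0.01.

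The count at 3 h depended on single arrays. It was 5 of 23 with all arrays and 2 without control shRNA 3 h replicate 1, c-Fos shRNA 0 h replicate 2, or either c-Fos shRNA 3 h array. It was 3 without control shRNA 0 h replicate 2 or either c-Fos shRNA 6 h array, and 9 without control shRNA 3 h replicate 2. The Pik3r3 rise was called in each of these.

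After the first hour, members were called in the control arm in both directions. Between 1 h and 6 h, 6 of 23 member probe sets were called higher and 6 lower with control shRNA, against 13.5% and 16.5% of all probe sets. With c-Fos shRNA 1 was called higher, Pik3r3, and 0 lower, against 12.6% and 14.1%, and the 2 counts were not tested against each other. With the replicate block the control arm had 7 higher and 8 lower, against 20.1% and 23.8%, and the c-Fos arm 1 higher and 3 lower, against 19.7% and 21.1%. Without the block, the 6 that rose in the control arm were both probe sets of Fstl1 and of Txndc5, 1458897_at of Ust, and Pik3r3. The 6 that fell were 4 of Pigq and 2 of Npnt.

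A call in 1 arm and not in the other does not show that the arms differ, so the difference itself was tested as an interaction, which is the change in the c-Fos arm less the change in the control arm. The fit without the replicate block leaves the shared deviation of same-numbered arrays in the spread. In that fit no member probe set was called, either for 3 h against 1 h or for 6 h against 1 h. Of all probe sets 0.00634% and 0.121% were called. At an unadjusted limma p under 0.05 there were 6 and 12 of 23 member probe sets, against 4.92% and 7.71% of all probe sets. The 23 report 9 genes, 5 of them Pigq probe sets, and probe sets of 1 gene are not independent, so these are not counts of genes. The lowest adjusted p was 0.114, for Txndc5 1451091_at at 6 h, with an interaction of -1.01 ± 0.21. The same interactions with the replicate number as a block, which the pairing of the arrays allows, were called in 2 member probe sets upward and 1 downward at 3 h, against 0.339% and 0.301% of all. At 6 h 5 were called upward and 7 downward, against 1.51% and 1.35%.

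At 6 h the 7 downward interactions with the block were those of Fstl1 (-1.31, adjusted p = 0.000534, and -1.12, adjusted p = 0.00418), Txndc5 (-1.01 and -1.06), Ust (-0.90), Prnp 1416130_at (-0.78) and Pik3r3 (-0.67). The 5 upward ones were those of Pigq (1.15, 1.07 and 1.06) and Npnt (0.72 and 0.60). For Fstl1, Txndc5, Ust and Pik3r3 the control arm gained on the c-Fos arm, and for Pigq and Npnt it fell away from it. Gpd1l and Adam10 had no call with or without the block. Their interactions at 6 h were 0.17 ± 0.27 for Gpd1l 1438195_at and -0.05 ± 0.14 for Adam10 1428103_at.

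**Figure D3:**
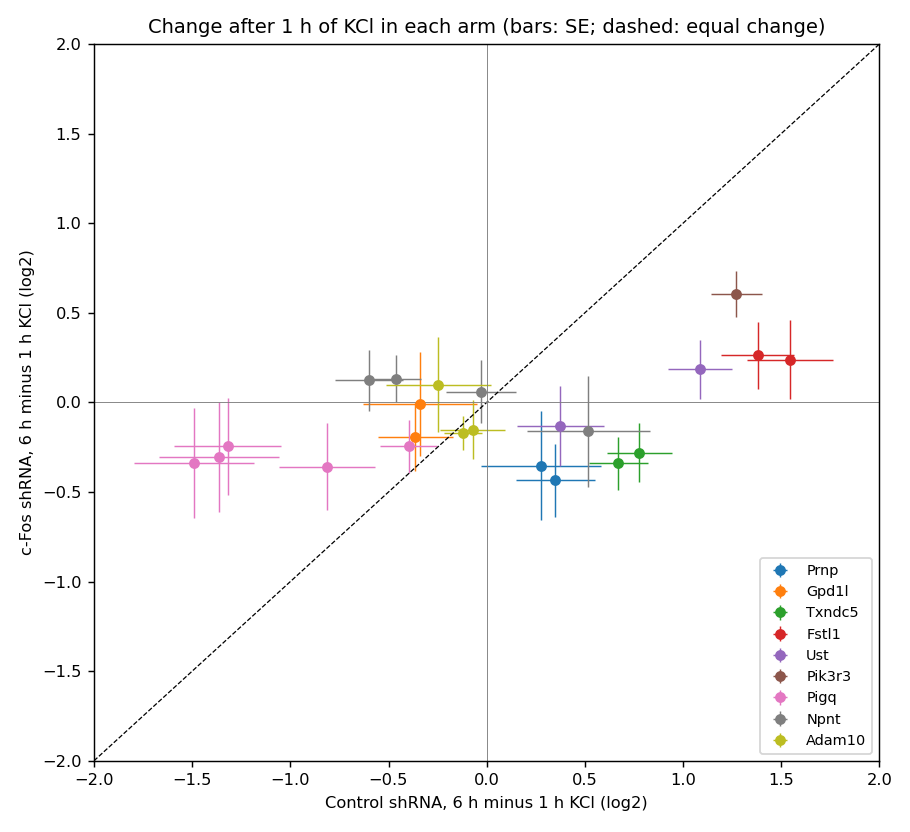
Change from 1 h to 6 h of KCl in log2 intensity with c-Fos shRNA (vertical axis) against the same change with control shRNA (horizontal axis) for the 23 tested member probe sets, coloured by gene, with standard errors as bars and a dashed line of equal change. The points spread from -1.49 for Pigq to 1.54 for Fstl1 along the horizontal axis and from -0.44 for Prnp to 0.61 for Pik3r3 along the vertical one.

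Several members also varied with the replicate number, and such variation was not confined to them. Over the tested probe sets, deviations of same-numbered arrays correlated in 28 of 28 pairs of groups, at 0.353 to 0.643. How many of all probe sets had replicate 2 higher or lower in 8 of 8 groups was not counted. Replicate 2 was above replicate 1 in 8 of 8 groups for both probe sets of Prnp and Fstl1, for 1438195_at of Gpd1l and for 4 probe sets of Pigq. The median gap was 0.36 for Prnp 1448233_at and 0.37 for Pigq 1437999_x_at. In a single group the gap reached 0.90 for Prnp 1448233_at and 0.83 for Pigq 1438652_x_at. Replicate 2 was lower in 8 of 8 groups for Npnt 1452106_at and 1452107_s_at, by 0.15 and 0.22. These gaps were smaller than the average shRNA differences of the same probe sets, which ran from 1.83 for Pigq 1435416_x_at to 2.74 for Prnp 1448233_at.

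The other genes around 8 of the members, listed by function, held calls in both directions in most lists. For the average over the 4 times, 7 of 25 tested GPI anchor genes were called higher and 6 lower, with a median of -0.03 against 0.02 over all genes. Pgap2, which remodels the anchor lipid, was higher by 0.83 ± 0.11 (limma adjusted p = 7.64e-05), Pigu of the transamidase by 0.73 ± 0.10 (adjusted p = 0.000102) and Pigl, the deacetylase, by 0.72 ± 0.07 (adjusted p = 4.56e-06). The 6 called lower were Pigb (-0.49), Pigp (-0.41), Pigh (-0.39), Pgap1 (-0.35), Dpm1 (-0.34) and Piga (-0.31). Of 17 protein disulfide isomerase genes and relatives, the family of Txndc5, 4 were higher and 6 lower with a median of 0.03. Tmx1 was higher by 0.91 ± 0.06 (adjusted p = 2.62e-07) and the oxidase gene Ero1a by 0.64, while Tmx4 differed by -0.65.

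Around Adam10, 5 of 21 ADAM proteases and regulators were higher and 7 lower. Tspan17, a tetraspanin partner of Adam10, was higher by 1.59 ± 0.20 (limma adjusted p = 5.06e-05) and Tspan5, another, by 0.78. The protease inhibitor gene Timp4 differed by -0.82 ± 0.04 (limma adjusted p = 4.58e-08). Whether the product of Timp4 acts on Adam10 was not examined here. The other tetraspanin genes of the list were split. Tspan14 was called higher (0.73), Tspan15 (-0.53) and Tspan33 (-0.32) were called lower, and Tspan10 was not called. Of the other Timp genes, Timp2 was called lower (-0.15), and Timp1 and Timp3 were not called. Around Prnp, 3 of 11 relatives and binding partners were higher and 5 lower. The cell adhesion gene Ncam1 was higher by 0.55, and Gpc1 and Lrp1 differed by -0.50 and -0.16.

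Of 20 genes of chondroitin and dermatan sulfate synthesis and related sulfation, the setting of Ust, 8 were higher and 3 lower, with a median of 0.15. The sulfotransferase genes Chst12 and Chst7 were higher by 0.50 and 0.38, and the linker enzyme gene B4galt7 differed by -0.35. One of the 8, Hs2st1 (0.21), encodes an enzyme that sulfates heparan sulfate. Among the SPARC and follistatin relatives and the partners of Fstl1, 3 of 13 were higher and 2 lower: Fstl5 (0.55), Spock3 (0.22) and Dip2a (0.18), and Sparc (-0.46) and Spock1 (-0.33). Among 12 nephronectin relatives and integrin subunits 0 were higher and 2 lower, Itga6 (-0.48) and Itgb1 (-0.44). Of 11 glycerol 3-phosphate and NADH shuttle genes, the setting of Gpd1l, 3 were higher, Gpam (0.48), Slc25a12 (0.23) and Agpat1 (0.22), and 2 lower, Got1 (-0.44) and Mdh2 (-0.21). Each of these lists, set against 24.0% higher and 21.7% lower over all genes, held calls in both directions except that of Npnt.

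More cell markers were called lower than higher in each list with a call. Over all genes 24.0% were called higher and 21.7% lower. Of 12 neuronal markers 2 were higher and 6 lower, and the largest called differences were those of Rbfox3 (-0.74), Nefm (-0.40) and Syn1 (-0.32). Of 10 astrocyte markers Aldh1l1 was higher (0.23), and S100b (-0.85), Slc1a2 (-0.41) and Slc1a3 (-0.16) were lower. Of 9 markers of progenitors and dividing cells Cdk1 was higher (0.33), and Neurog2 (-0.79), Hes5 (-0.67), Nes (-0.25) and Sox2 (-0.11) were lower. Of 7 oligodendrocyte markers Mbp was lower (-0.35), of 9 vascular and fibroblast markers Pdgfrb was lower (-0.49), and the 2 microglial markers above the filter were not called.

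**Figure D4:**
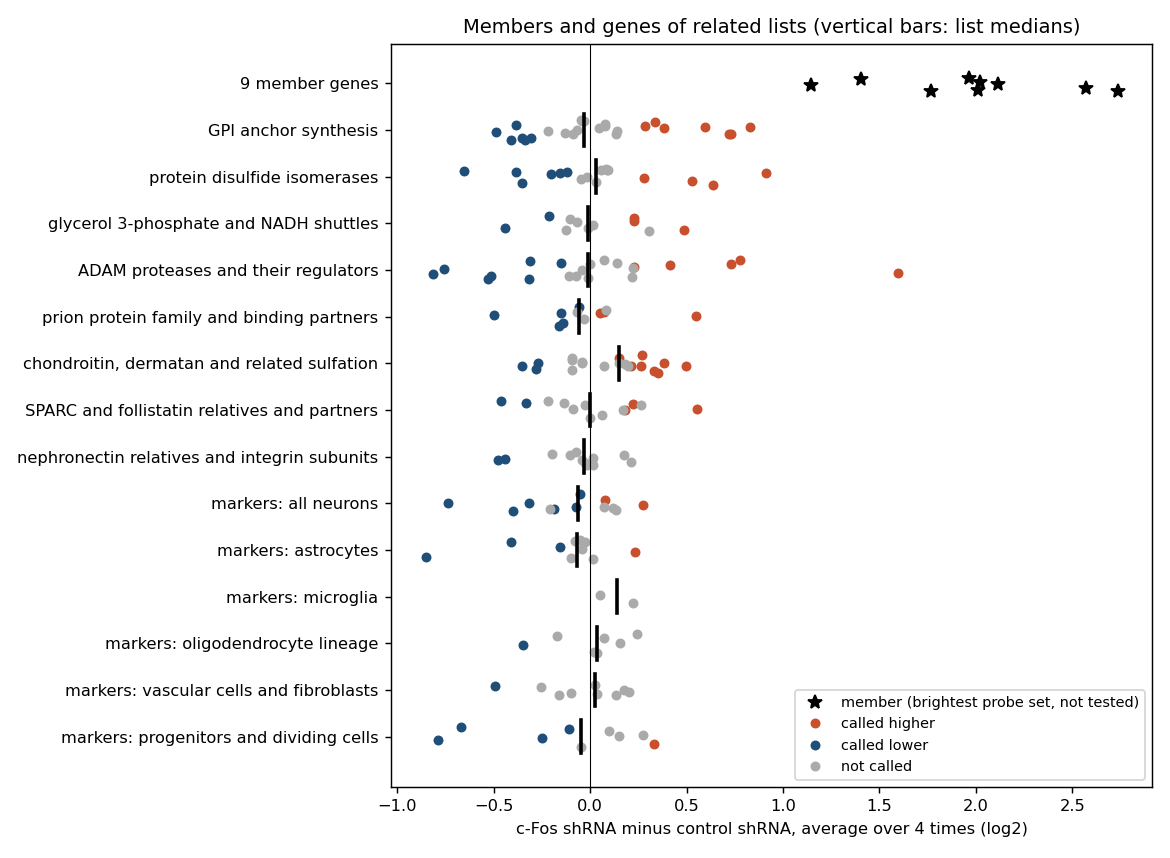
Average difference over the 4 KCl times in log2 (horizontal axis, c-Fos shRNA minus control shRNA) for the 9 members (stars, not tested) and the genes of each related list (dots, 1 probe set a gene; orange called higher, blue called lower, grey not called), with a vertical bar at each list's median. The list medians lie between -0.07 and 0.15, and Tspan17 at 1.59 is the one list gene above the lowest member, Pik3r3 at 1.15.

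The genes whose course over the 8 groups lay nearest to the median course of the members were Smim13, Ubxn2a, Copz1, Gng7 and Nipsnap3b. The measure was the root mean square difference, in log2 over the 8 group means after centring, and it was 0.07, 0.14, 0.17, 0.19 and 0.19. Smim13 was higher with c-Fos shRNA by 1.89 on average and Copz1 by 1.63. The members themselves lay at 0.18 (Txndc5) to 0.68 (Pik3r3) from the same median course, and all these distances describe group means of the same arrays.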

How the data were processed

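The authors' deposited table gives a linear intensity for each probe set on each array, from 0.51 to 23935.63, made by Affymetrix processing per the labels. How probes were summarised and scaled is not given in the sources used here. Medians of the arrays ran from 104.75 to 118.56, so log2(intensity + 16) was quantile normalized. The platform annotation named 1 gene for 34945 of 45037 probe sets that are not controls, several for 932 and none for 9160, and 34741 matched RefSeq by Entrez number. Probe sets above the 30th percentile of the mean (31526, a log2 level of 5.79) were tested.

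limma 3.58.1 in R 4.3.3 fitted 8 group means with 8 residual degrees of freedom (eBayes with trend), and calls had a Benjamini-Hochberg adjusted p under 0.05 over all tested probe sets. Lists used the brightest probe set of each gene. The pathway list of Pik3r3 is not reported here. Members and lists were chosen with earlier results of these data known. The genes named were every member probe set, the 3 largest called changes of each list with all calls where 5 or fewer, Fos, and the 5 nearest genes in pattern. Also named were the GPI anchor genes called lower, the tetraspanin and Timp genes of the Adam10 list, and Hs2st1. Within groups, arrays correlated at 0.985 to 0.992.

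Replicate numbers come from the array labels. Deviations of same-numbered arrays correlated in 28 of 28 pairs of groups, at 0.353 to 0.643 (median 0.481), so the numbers were taken to pair the arrays. The number of arrays limits the precision. Other normalizations, pseudocounts of 1 and 64, no filter and a filter at the 50th percentile, no trend, the block, 1 probe set a gene and each array left out were tried.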

Additional observations from a re-analysis of the deposited data

Results flagged for a closer look

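The interactions between shRNA and KCl listed here were called once the replicate number was a block, while the same limma fit without the block called none of them. Values are the log2 change in the c-Fos arm less that in the control arm, and adjusted p-values are from the block fit. For 3 h against 1 h, Pigq 1437999_x_at was at 1.32 (limma adjusted p = 0.00985), Pigq 1438652_x_at at 1.36 (adjusted p = 0.0112) and Pik3r3 at -0.81 (adjusted p = 0.0251).

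For 6 h against 1 h, the Pigq probe sets 1415946_at, 1437999_x_at and 1438652_x_at were at 1.15, 1.07 and 1.06 (limma adjusted p = 0.00921, 0.0112 and 0.0162). Npnt 1452106_at and 1452107_s_at were at 0.60 and 0.72 (adjusted p = 0.0315 and 0.0177). Fstl1 1448259_at and 1416221_at were at -1.31 and -1.12 (adjusted p = 0.000534 and 0.00418), and Txndc5 1451091_at and 1423746_at at -1.01 and -1.06 (adjusted p = 0.00789 and 0.0159). Ust 1458897_at was at -0.90 (adjusted p = 0.0149), Prnp 1416130_at at -0.78 (adjusted p = 0.00406) and Pik3r3 at -0.67 (adjusted p = 0.0291). The cause of the difference between the fits was not tested beyond the pairing of the arrays.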

How the results depend on the processing

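No called KCl or interaction result of a member probe set changed sign under the alternatives run. The calls of list and marker genes were not compared one by one across them. Of 1701 tests of member probe sets under other settings, 1647 kept direction and side of the threshold, 44 gained a call and 10 lost it. Leaving out single arrays kept 3225 of 3312, with 17 gained and 70 lost.

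With the replicate block, counts of called probe sets went from 2089 to 4326 for KCl at 1 h, from 4914 to 9378, 4579 to 9025, 5402 to 9981 and 5435 to 10283 for the shRNAs at 0, 1, 3 and 6 h, from 4116 to 8071 and 8447 to 12878 for c-Fos shRNA at 3 and 6 h against 1 h, and from 4592 to 8486 for control shRNA at 3 h against 1 h. The interactions went from 2 to 202 at 3 h and from 38 to 902 at 6 h. Member counts under the block went from 0 to 3 (KCl 1 h), 5 to 8 (KCl 3 h), 7 to 11 (control 3 h against 1 h), 1 to 2 and 1 to 4 (c-Fos shRNA 3 and 6 h against 1 h), and 0 to 3 and 0 to 12 (interactions); the block changed no other member count by over 1.5 times.

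With 1 probe set a gene, fewer features were tested, and counts were 923, 5641 and 7356 for KCl at 1, 3 and 6 h, 3102, 2885, 3240, 3311 and 6662 for the shRNAs at the 4 times and on average, 2687 and 4835 for c-Fos shRNA and 2947 and 5292 for control shRNA at 3 and 6 h against 1 h. Member counts were then 2 and 5 of 9 for KCl at 3 and 6 h and 4 and 6 of 9 for control shRNA, where the counts over all genes are out of 13915. The interaction at 3 h was 7 with 1 probe set a gene or the 50th percentile filter, 8 with a pseudocount of 64, 1 with no trend, and 0 with no filter or either other normalization. Member calls at 3 h of KCl were 3 with no filter or no trend.

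Leaving out 1 array gave 1351 to 2033 for KCl at 1 h, 8774 to 10670 at 3 h and 12418 to 14212 at 6 h. The shRNA counts were 2738 to 5049, 2176 to 4539, 2742 to 5439, 3011 to 5448 and 10846 to 12287 on average. Within arms they were 1893 to 3997 and 5480 to 8440 (c-Fos shRNA), 2379 to 4606 and 6718 to 9598 (control), and the interactions 0 to 0 and 0 to 25. Member counts were 0 to 1, 2 to 9 and 7 to 11 for KCl, 0 to 1 and 1 to 1 for c-Fos shRNA, 3 to 7 and 9 to 12 for control, and 0 to 0 for both interactions. Arrays in pairs leave 1 array in a group when 1 is left out, and the lone array is assumed to vary like the other groups.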
